A study of Mus musculus with 6 samples.

Results

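Tuft cells are a rare, chemosensory cell type of the intestinal epithelium, and 10 genes by which they are commonly recognised were examined in RNA sequenced from mouse small intestinal organoids. The genes were chosen by name as Pou2f3, Gfi1b, Trpm5, Il25, Alox5, Alox5ap, Ltc4s, Dclk1, Avil and Sh2d6, and all 10 were found among the 21397 genes of the deposited table. The organoids were grown from small intestine of Fpr2f/f mice, which carry Fpr2 alleles that Cre recombinase can delete, and no Cre was named for these samples. Both groups held the vehicle, 0.1% DMSO, and the Control group received it alone. The MMK-1 group received the synthetic peptide MMK-1, an agonist of formyl peptide receptor 2 (FPR2), and both groups were sampled on day 5. The treatment label gives the dose as 1 mM, whereas the protocol text and the study's methods give 1 μmol/L. There were 3 libraries in each group and 6 in all. Organoids of several mice were pooled in each sample. The study asked how activation of FPR2 acts on the proliferation and differentiation of intestinal stem cells, and the comparison given here is MMK-1 against Control for genes of one differentiated lineage.

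Tuft cells detect luminal metabolites through G protein-coupled receptors and a taste-type cascade that ends in the opening of the cation channel TRPM5. They arise from crypt progenitors under the transcription factor POU2F3, which binds an octamer DNA sequence and works with small coactivators of the OCA family. Upon stimulation they release the cytokine IL-25 and cysteinyl leukotrienes, which act on innate lymphoid cells in the mucosa, and interleukin-13 from those cells in turn raises the number of tuft cells. Organoids of this kind hold epithelium without lymphoid cells, so that loop is not present in the culture unless the cytokine is added.

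The tuft genes were weakly expressed in every library. FPKM values scale the sequenced fragments on a gene by its length and by the depth of the library, and 9 of the 10 genes had a mean below 1 FPKM in Control. The exception was Ltc4s, at 4.01 ± 0.518 FPKM (SD, n = 3). Because most values were this low, the whole numbers of sequenced fragments behind the FPKM values were recovered from the table. The libraries held between 35512739 and 37537463 fragments, and the 10 genes together took 381 to 396 of them in Control and 386 to 429 in MMK-1. Among all genes of the table, the Control means ranged from percentile 21.3 for Il25 to percentile 64.2 for Ltc4s. In the bulk RNA of whole organoids, a change in the number of tuft cells and a change in the RNA of each tuft cell cannot be told apart.

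The promoters of the genes on which the results turn are shown here, because POU2F3 reads the octamer ATTTGCAT and the coactivators act at such sites. The 250 bases before the annotated start of transcription are given in the direction of transcription, 5′ to 3′, from RefSeq on GRCm38.p6. Capitals mark the octamer, written as ATTTGCAT or as its reverse complement ATGCAAAT. Trpm5 (chr7:143094643-143094892, minus strand) and Ltc4s (chr11:50238533-50238782, minus strand) are members that moved in opposite directions. Pou2af2 (chr9:51328919-51329168, minus strand, the more upstream of its annotated starts) and Sucnr1 (chr3:60081619-60081868, plus strand) are other tuft cell genes, described further on, that were lower in MMK-1.
Trpm5: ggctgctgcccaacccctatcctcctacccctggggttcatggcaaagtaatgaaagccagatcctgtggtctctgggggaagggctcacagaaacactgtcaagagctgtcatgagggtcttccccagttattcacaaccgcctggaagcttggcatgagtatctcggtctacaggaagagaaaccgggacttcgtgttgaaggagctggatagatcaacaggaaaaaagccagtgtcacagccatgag
Ltc4s: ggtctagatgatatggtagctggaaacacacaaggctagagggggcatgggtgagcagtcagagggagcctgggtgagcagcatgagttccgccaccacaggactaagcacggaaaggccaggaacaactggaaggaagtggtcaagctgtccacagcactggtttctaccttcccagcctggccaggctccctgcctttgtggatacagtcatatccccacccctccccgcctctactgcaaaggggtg
Pou2af2: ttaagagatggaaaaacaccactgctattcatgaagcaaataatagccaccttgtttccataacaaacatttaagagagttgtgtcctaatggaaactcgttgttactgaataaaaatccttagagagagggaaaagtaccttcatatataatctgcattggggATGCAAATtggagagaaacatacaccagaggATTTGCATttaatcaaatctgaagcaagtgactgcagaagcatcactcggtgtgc
Sucnr1: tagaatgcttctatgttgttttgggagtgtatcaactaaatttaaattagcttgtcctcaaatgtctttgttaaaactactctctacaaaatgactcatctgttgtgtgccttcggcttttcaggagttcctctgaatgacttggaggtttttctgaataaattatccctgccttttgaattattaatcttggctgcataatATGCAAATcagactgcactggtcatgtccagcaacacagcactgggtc
The Pou2af2 window held the octamer in both orientations, the outer of them beginning 86 bases before the start. The window of the other annotated Pou2af2 start (chr9:51312670-51312919) held none. The Sucnr1 window held 1 copy, beginning 48 bases before the start, and the Trpm5 and Ltc4s windows held none. RefSeq windows of 300 bases, which also take in 50 bases after the start, were at hand for 7 of the 10 genes, and Pou2f3, Il25 and Alox5ap had no entry. None of the 8 windows of these 7 genes held the octamer in either orientation, against 7 of 60 windows (11.7%) of 45 other tuft cell genes and 570 of 32851 windows (1.74%) of all genes. The 7 windows belonged to Hpgds, Il4ra, Itpr3, Kctd12, Ly6g6d, Pou2af2 and Sucnr1. Of these genes Itpr3, Kctd12 and Ly6g6d were higher in MMK-1, Il4ra, Pou2af2 and Sucnr1 were lower, and Hpgds did not pass the test. These are matches of letters within a short window, and no binding was measured.

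Among the 10 genes, Pou2f3 and Trpm5 were higher and Ltc4s was lower in MMK-1 than in Control. Each gene was tested with limma on log2(FPKM + 0.1) across all genes with a mean of at least 0.1 FPKM, and a gene was called when its Benjamini-Hochberg adjusted p was at most 0.05. By this test 7 of the 10 genes could be tested, of which 2 were called higher and 1 lower, and 4 were not called. The rate of calls over all 13385 genes tested was 67.6%, with 44.2% called higher and 23.4% lower, and it was 49.3% over the 2834 genes with means from 0.1 to 1 FPKM. The 3 calls among 7 genes are therefore not more frequent than calls elsewhere in the table. By a second rule, a fitted fold of at least 2 with an unadjusted p of at most 0.05, Pou2f3 was called higher and no member lower, against 14.1% of all genes tested (8.06% higher and 6.01% lower). The median log2 fold change was 0.08 for the 7 genes and 0.16 for all genes tested. The groups did not overlap for 5 of the 10 genes, 3 of them higher and 2 lower in MMK-1, against 52.8% of all genes above 0 (34.6% higher and 18.1% lower) and 56% of genes with means from 0.1 to 1 FPKM. The exact permutation test of a single gene cannot give a p below 0.1 with 3 libraries in each group. The p-values measure the spread between these libraries, and whether the libraries of a group came from separate cultures of separate mice is not stated in the labels.

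MMK-1 replicate 3 stood apart from the other libraries of its group. The chi-square statistic per degree of freedom between libraries of one group was 2.83 to 4.97 in Control and 3.57 for MMK-1 replicates 1 and 2, but 31.3 and 36.6 when replicate 3 was compared with either of them. Without MMK-1 replicate 3, 2 members were again called higher and 1 lower. The number higher fell to 1, Pou2f3, without Control replicate 2, without MMK-1 replicate 1 or without MMK-1 replicate 2.

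**Figure D1:**
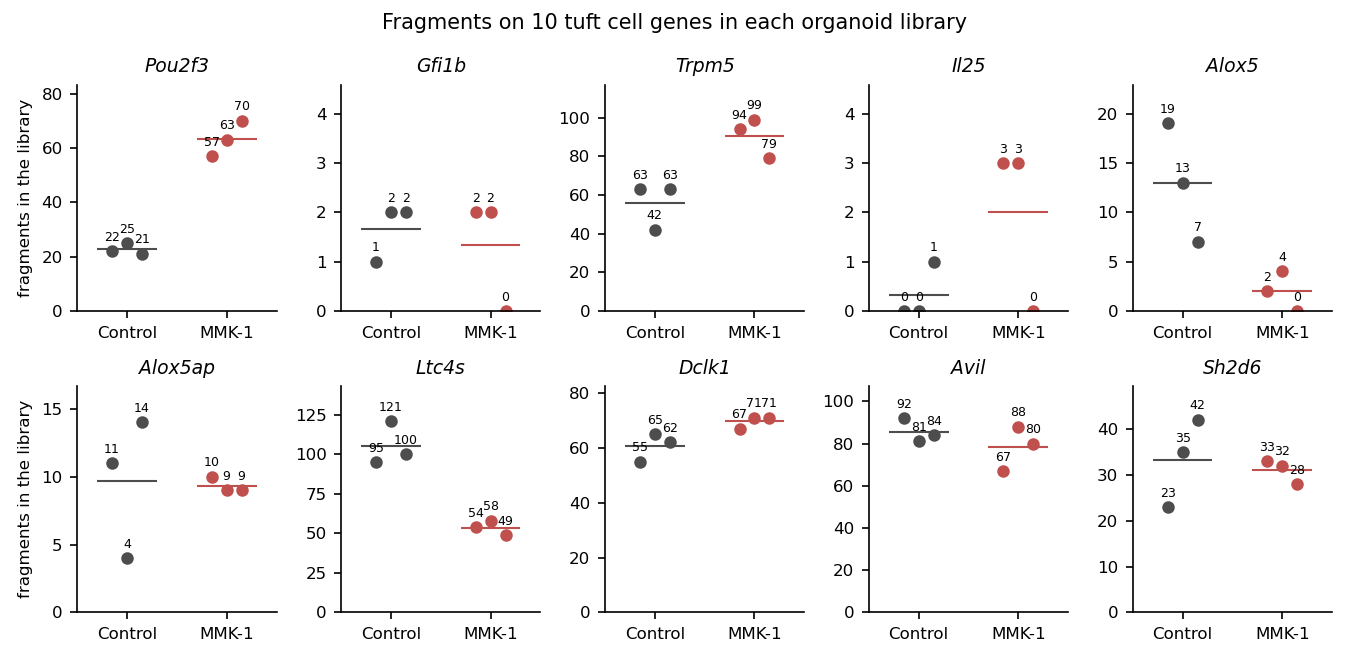
Fragments on each of the 10 genes (vertical axes, linear from 0, a scale for each gene) in the 3 Control libraries (grey) and the 3 MMK-1 libraries (red). Points are single libraries with their number of fragments and bars are group means; Pou2f3, Trpm5 and, by a small margin, Dclk1 lie higher and Ltc4s and Alox5 lower in MMK-1 with no overlap, and Gfi1b and Il25 never exceed 3 fragments.

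Pou2f3 (chr9:43123939-43210369, minus strand, GRCm38), which encodes the transcription factor required for the tuft lineage, had the largest change of the 7 members tested. Control libraries 1 to 3 held 22, 25 and 21 fragments on it. MMK-1 libraries 1 to 3 held 57, 63 and 70. The lowest MMK-1 library thus had more than double the fragments of the highest Control library. The mean level was 0.213 ± 0.0191 FPKM (SD, n = 3) in Control and 0.614 ± 0.0491 FPKM (SD, n = 3) in MMK-1. Relative to library totals, the pooled fragments were 2.89-fold higher in MMK-1, with a 95% exact interval of 2.18 to 3.87 that covers counting error only. The fitted log2 fold change was 1.19 with a standard error of 0.149, and the adjusted p from limma was 1.6e-04. All 13 alternative analyses that could test the gene also called it, and without MMK-1 replicate 3 the log2 fold change was 1.14.

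Gfi1b (chr2:28609450-28621982, minus strand) encodes a zinc-finger repressor that is restricted to tuft cells within the intestinal epithelium. It was represented by 1, 2 and 2 fragments in Control and by 2, 2 and 0 in MMK-1, which lay below the level required for the test. The pooled ratio of MMK-1 to Control was 0.828, with a counting interval from 0.164 to 3.85, which holds both falls and rises of several fold, and no change was detectable at this depth.

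The coactivators of the same pathway differed sharply from one another. Pou2af2 (chr9:51289686-51328917, minus strand), which encodes a partner of POU2F3 in tuft cells, had 445, 425 and 497 fragments in Control and 33, 44 and 33 in MMK-1. Every Control library was far above every MMK-1 library. The mean level fell from 8.36 ± 0.699 to 0.697 ± 0.126 FPKM (SD, n = 3 each). Relative to library totals, the ratio of MMK-1 to Control was 0.0833, with a counting interval from 0.0679 to 0.101. The fitted log2 fold change was -3.42 with a standard error of 0.121 and an adjusted p of 1.5e-07 in limma. It was called in all 15 alternatives, and without MMK-1 replicate 3 its log2 fold change was -3.34. In the alternatives with a minimum mean of 1 FPKM it passed the filter through Control alone, so those calls are not independent of the filter. Pou2af3, the related coactivator gene, was chosen for mention after its values were seen. It held 499 to 533 fragments in Control and 491 to 586 in MMK-1, groups that overlapped. Its log2 fold change was 0.09 (95% interval -0.06 to 0.23), with an adjusted p of 0.246 in limma. Spib, which encodes an ETS family factor found in tuft and microfold cells, had 40, 22 and 21 fragments in Control and 19, 43 and 34 in MMK-1. The groups overlapped, and the adjusted p in limma was 0.601. Pou2f3 was thus higher and Pou2af2 lower in MMK-1. The MMK-1 means of these genes, 0.614 and 0.697 FPKM, lay within 1 SD of Pou2af2 of each other, whereas the Control means were 0.213 and 8.36 FPKM.

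Trpm5 (chr7:143069153-143094642, minus strand), the calcium-activated cation channel that depolarises the cell, had 63, 42 and 63 fragments in Control. In MMK-1 it had 94, 99 and 79 fragments, all above the Control libraries. The means were 0.275 ± 0.0600 FPKM in Control and 0.462 ± 0.0618 FPKM in MMK-1 (SD, n = 3 each), and the pooled fragments were 1.68-fold higher in MMK-1 with a counting interval from 1.38 to 2.04. The log2 fold change was 0.59 with a standard error of 0.184, and the adjusted p in limma was 0.0203. This call depended on single libraries and was made in 10 of 13 alternatives. Adjusted p rose to 0.0689 without Control replicate 2, to 0.0611 without MMK-1 replicate 1 and to 0.0677 without MMK-1 replicate 2, while the log2 fold change stayed between 0.45 and 0.55. Without MMK-1 replicate 3 the log2 fold change was 0.68 and the adjusted p was 0.0179. The exons of Trpm5 share 220 bases (3.44% of its exonic length) with Tssc4 on the opposite strand, and whether counting used strand is not given in the sources used here. Tssc4, named only for this overlap, had 490 to 572 fragments in Control and 527 to 582 in MMK-1 (log2 fold change 0.12, adjusted p = 0.189 in limma).

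Among the other genes of the cascade the levels lay far apart. Itpr3, a calcium-release receptor that other epithelial cells also express and that is mentioned because of its high level, was at 24.1 ± 0.532 FPKM in Control and 35.0 ± 1.74 FPKM in MMK-1 (SD, n = 3 each; log2 fold change 0.54, adjusted p = 2.2e-05 in limma). Gnat3, the taste G protein alpha subunit, and Gng13, its gamma partner, each had 1 fragment in a single Control library and none in MMK-1. A count of 0 was read as compatible with up to 3 fragments in a library, so no change in these genes was detectable. Plcb2, the phospholipase of the cascade, had 24, 13 and 13 fragments in Control and 39, 21 and 23 in MMK-1. These groups overlapped, and in the 3 alternatives that kept it the adjusted p was 0.106 to 0.170.

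Sucnr1 (chr3:60081869-60087566, plus strand), the receptor through which tuft cells sense succinate, had 15, 13 and 10 fragments in Control and none in any MMK-1 library. Against 3 fragments in each MMK-1 library the difference was at least 4.08-fold lower in MMK-1. The fitted log2 fold change was -1.65 with a standard error of 0.240 and an adjusted p of 3.9e-04 in limma. With no fragment in MMK-1 this value depends on the pseudocount, ranges from -0.28 to -4.65 over the alternatives and is no measure of the size of the change. Sucnr1 reached the level required for this test through its Control libraries alone, so that its passing the filter and its call are not independent, and it fell below that level when any 1 Control library was left out. The fit with no filter on low values gave an adjusted p of 1.0e-04. The receptor thus went out of detection while the channel gene was 1.68-fold higher.

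Il25 (chr14:54932695-54935837, plus strand), the alarmin by which tuft cells alert innate lymphoid cells, was barely detected. Its fragments were 0, 0 and 1 in Control and 3, 3 and 0 in MMK-1. The pooled ratio of 6.21 had a counting interval from 0.753 to 285.6, and the exact two-sided permutation p was 0.4. Il17rb, which encodes the IL-25 receptor subunit and is itself expressed by tuft cells, had 244, 212 and 196 fragments in Control and 226, 258 and 276 in MMK-1. These groups overlapped. Its log2 fold change of 0.26 had an adjusted p of 0.0421 in limma, but 6 of 15 alternatives made the call. Leaving out Control replicate 2 or 3 or MMK-1 replicate 2 or 3 raised the adjusted p to between 0.0993 and 0.139, and under scaling by the upper quartile the log2 fold change was 0.16 with an adjusted p of 0.171.

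Of the 3 members that make leukotriene C4, Ltc4s was called lower, Alox5 had fewer fragments in MMK-1 and Alox5ap was not called, and differences between the 3 genes were not tested. ALOX5 with its activating protein ALOX5AP converts arachidonic acid to leukotriene A4, and LTC4S joins this product to glutathione. The sum of the 3 genes was 4.07 to 4.81 FPKM in Control and 2.12 to 2.58 FPKM in MMK-1, and most of it was Ltc4s.

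Ltc4s (chr11:50236461-50238616, minus strand) had 95, 121 and 100 fragments in Control and 54, 58 and 49 in MMK-1. The highest MMK-1 library lay well below the lowest Control library. The mean level was 4.01 ± 0.518 FPKM in Control and 2.11 ± 0.215 FPKM in MMK-1 (SD, n = 3 each), and the pooled fragments were 1.90-fold higher in Control with a counting interval from 1.56 to 2.31. The log2 fold change was -0.89 with a standard error of 0.111, and the adjusted p in limma was 1.6e-04. All 15 alternatives made the same call, and without MMK-1 replicate 3 the log2 fold change was -0.81. Its exons share 268 bases (26.4% of the exonic length) with the antisense gene Gm26542, which has no row in the table, so reads of the antisense gene could have been counted here if strand was not used.

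Alox5 (chr6:116410077-116461178, minus strand) had 19, 13 and 7 fragments in Control and 2, 4 and 0 in MMK-1. The groups did not overlap, and the Control libraries themselves differed by more than 2-fold. Its means were 0.112 ± 0.0515 and 0.0180 ± 0.0179 FPKM (SD, n = 3 each), which placed it under the level required for the test. The pooled fragments were 6.28-fold higher in Control, with a counting interval from 2.64 to 18.2. With no filter on low values, limma gave a log2 fold change of -0.82 (SE 0.206) and an adjusted p of 0.0182, in a fit that called 43.7% of genes in either direction and 15.3% lower. In limma-voom on the fragments of genes with at least 3 on average, a setting added after the data had been seen, the log2 fold change was -2.78 (SE 0.829) with an adjusted p of 0.0119, and 21.6% of genes were called lower. Alox5 met that minimum through its Control libraries alone, so this second call is not independent of the filter. The exact permutation p was 0.1, the smallest this design allows.

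Alox5ap (chr5:149264767-149288153, plus strand) had 11, 4 and 14 fragments in Control and 10, 9 and 9 in MMK-1. The means were 0.255 ± 0.136 and 0.255 ± 0.0204 FPKM (SD, n = 3 each), and the log2 fold change was 0.08 (95% interval -0.61 to 0.78, adjusted p = 0.822 in limma). The interval of the pooled ratio, 0.573 to 1.74, still holds changes of the size seen for Trpm5.

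Upstream of these enzymes, Pla2g4a encodes the cytosolic phospholipase that releases arachidonic acid from membranes. It had 111, 131 and 114 fragments in Control and 492, 575 and 565 in MMK-1. The mean rose from 1.04 ± 0.0925 to 4.92 ± 0.356 FPKM (SD, n = 3 each), the log2 fold change was 2.14 with a standard error of 0.0923, and the adjusted p in limma was 4.0e-07, with the same call in 15 of 15 alternatives. In the prostaglandin branch, Hpgds, the prostaglandin D2 synthase, had 20, 16 and 13 fragments in Control and 27, 42 and 25 in MMK-1. Its groups did not overlap, but the adjusted p in limma was 0.0566 and 4 of 13 alternatives passed the threshold. Ptgs1, the constitutive cyclooxygenase, had 2 to 9 fragments in Control and 1 to 3 in MMK-1. Chat, which makes acetylcholine, had 2 to 5 fragments in Control and 2 in each MMK-1 library. Both genes lay under the level required for the test.

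Of the lipid mediator genes listed for tuft cells, Pla2g4a was therefore called higher and Ltc4s lower, and the fragments on Alox5, at an earlier step than Ltc4s, were also fewer. Which cell types of the organoids held the Pla2g4a transcripts was not determined. Hydrolysis of phospholipid, leukotriene C4 synthesis and prostaglandin D2 synthesis were not measured here, and the values given are levels of transcripts only.

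Dclk1 (chr3:55242364-55539068, plus strand), a microtubule-associated kinase and the most used tuft cell marker, had 55, 65 and 62 fragments in Control and 67, 71 and 71 in MMK-1. The groups did not overlap, yet the difference was small. The means were 0.117 ± 0.0098 and 0.139 ± 0.0033 FPKM (SD, n = 3 each). The pooled ratio was 1.19 with a counting interval from 0.970 to 1.46, the log2 fold change was 0.14 (95% interval -0.32 to 0.60), and the adjusted p in limma was 0.556, with no call in any of 13 alternatives.

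Avil (chr10:127000709-127020994, plus strand) encodes advillin, an actin-bundling protein of the tuft cell's apical rootlets. It had 92, 81 and 84 fragments in Control and 67, 88 and 80 in MMK-1, and the groups overlapped. Its log2 fold change was -0.07 (95% interval -0.39 to 0.25) with an adjusted p of 0.664 in limma. Its exons share 165 bases (4.86%) with Tsfm on the opposite strand. Tsfm, named for this overlap, was itself higher in MMK-1, by 0.78 on the log2 scale (adjusted p = 1.9e-06 in limma).

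Sh2d6 (chr6:72513641-72521707, minus strand), whose product is an adaptor with an SH2 domain, had 23, 35 and 42 fragments in Control and 33, 32 and 28 in MMK-1. All MMK-1 libraries fell within the range of Control. The log2 fold change was -0.02 (95% interval -0.49 to 0.45) with an adjusted p of 0.941 in limma.

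**Figure D2:**
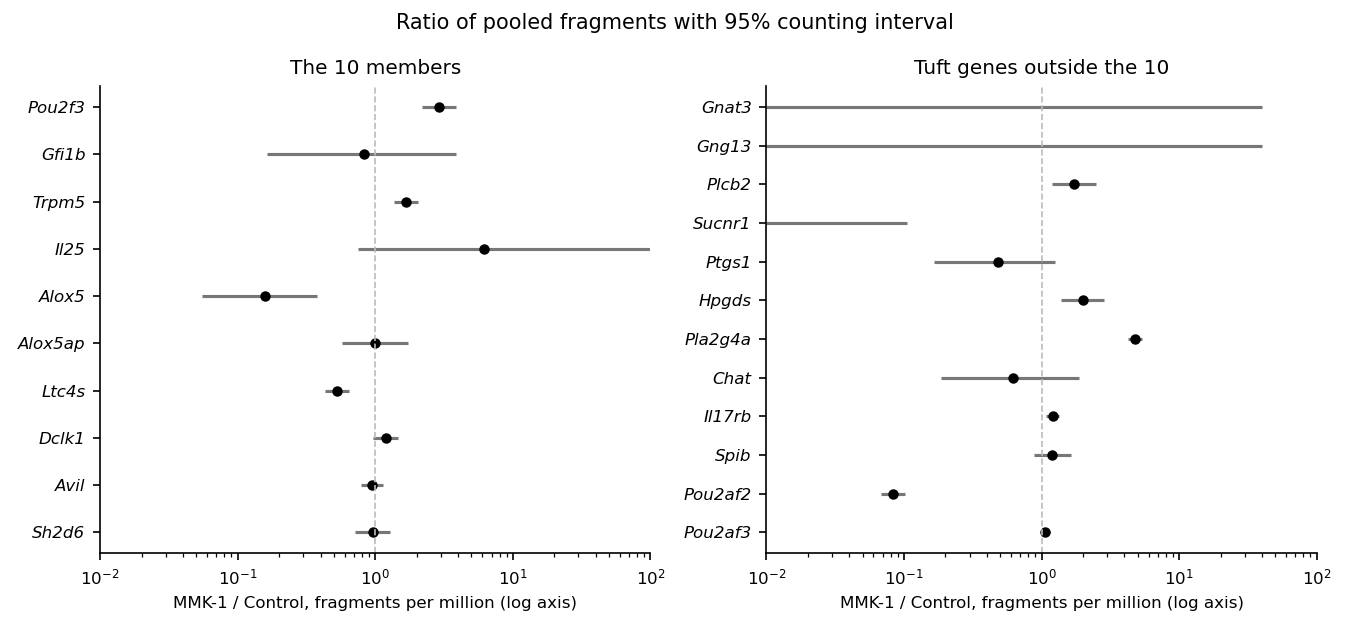
Ratio of pooled fragments, MMK-1 over Control, each relative to the library totals (horizontal log axis), for the 10 genes (left) and 12 tuft cell genes outside them (right), with 95% exact counting intervals cut off at the ends of the axis. Gnat3, Gng13 and Sucnr1 have no point because MMK-1 holds no fragment; Pou2af2 at 0.0833 and Alox5 at 0.159 lie farthest left of 1 among the points, and Pla2g4a at 4.74 and Il25 at 6.21 farthest right, the last with an interval that spans 1.

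The order of the 10 genes by FPKM, a scale that allows for gene length, differed between the groups. In Control, Ltc4s was highest at 4.01 FPKM, followed by Avil at 0.563 and Sh2d6 at 0.369 FPKM. Trpm5, Alox5ap and Pou2f3 came next at 0.275, 0.255 and 0.213 FPKM. Among Sh2d6 and these 3 genes, each pair of neighbours differed by less than the larger SD of the pair, and Dclk1 and Alox5 were level at 0.117 and 0.112 FPKM. In MMK-1, Ltc4s was again highest at 2.11 FPKM. Pou2f3, at 0.614 FPKM, came next, above Avil at 0.532, Trpm5 at 0.462 and Sh2d6 at 0.356 FPKM, and the steps from Pou2f3 to Avil and from Avil to Trpm5 were little more than the SD of Avil (0.0693). Alox5 moved to the end of the order at 0.0180 FPKM, beside Gfi1b at 0.0205 FPKM.

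A wider list of 51 tuft cell genes, which holds none of the 10, showed calls in both directions as well. Of the 51 genes, 32 could be tested, 18 were detected below the level required, and Tas1r1, a taste receptor subunit, was listed at 0 in every library. Of those tested, 10 were higher and 8 lower in MMK-1 and 14 were not called, a rate of 56.3% against 67.6% of all genes tested. Sucnr1, among the 8, passed the filter through Control alone. The number lower was 5 without Control replicate 1 or without Control replicate 3. Under upper-quartile scaling the balance turned to 8 higher and 10 lower, while calls over all genes went from 5911 higher and 3131 lower to 4837 and 4071. By the second rule, of fold and unadjusted p, 5 were higher and 2 lower, against 8.06% and 6.01% of all genes. The median log2 fold change of the 32 genes was 0.12, beside 0.16 for all genes. Many of these genes are also expressed by other epithelial cells or by leukocytes, and 33 of the 51 had a Control mean under 1 FPKM.

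The counts by role are small and stand beside rates of 44.2% higher and 23.4% lower over all genes tested. Of 12 receptors and members of the taste-type cascade 6 were tested, 1 was higher and 2 were lower. The 2 were Sucnr1, with the limit given above, and Itpr2, an inositol trisphosphate receptor named here for its count, which was called in 6 of 13 alternatives and lost its call (adjusted p of 0.0652 to 0.0927 in limma) when any library other than MMK-1 replicate 3 was left out. Of 4 genes for eicosanoids and acetylcholine 2 were tested and 1 was higher. All 3 cytokine receptors were tested, and 1 was higher and 2 were lower. The higher one, Il17rb, was called in 6 of 15 alternatives, and of the lower ones Il4ra was called in 15 of 15 and Il13ra1 in 13 of 15. Of 5 transcription factors and coactivators 3 were tested and 1 was lower, the gene Pou2af2. Of 12 genes of immune-type signalling 8 were tested, with 1 higher and 1 lower, and the higher one, the kinase gene Matk, was called in 3 of 13 alternatives and lost its call (adjusted p of 0.0619 to 0.119 in limma) when any library other than Control replicate 1 was left out. Of 15 genes for surface proteins, cell structure and other roles 10 were tested, with 6 higher and 2 lower.

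The 3 largest upward log2 fold changes among the called genes of this list, in the fit of all 6 libraries, were those of Pla2g4a, Cd24a and Ly6g6d. Without MMK-1 replicate 3, Kctd12 (1.38) came above Cd24a (1.34) and Ly6g6d. Cd24a, a surface glycoprotein that is also abundant on other crypt cells, rose from 47.6 ± 1.02 to 122.0 ± 2.82 FPKM (SD, n = 3 each), by 1.36 on the log2 scale with an adjusted p of 4.4e-08 in limma. Ly6g6d, a surface protein of the Ly6 family, had 3, 1 and 10 fragments in Control and 10, 17 and 17 in MMK-1. The highest Control library equalled the lowest MMK-1 library in fragments but not in FPKM, the log2 fold change was 1.24 (SE 0.371) with an adjusted p of 0.0170 in limma, and 10 of 12 alternatives made the call. The adjusted p was 0.0501 without Control replicate 1 and 0.0548 without MMK-1 replicate 2. In the same fit the downward genes named by this rule were Pou2af2, Sucnr1 and Ptpn6, and the place of Sucnr1 among them is set by the pseudocount. Ptpn6, the tyrosine phosphatase SHP-1, which leukocytes and epithelia also express, fell from 14.0 ± 0.757 to 7.54 ± 0.680 FPKM (SD, n = 3 each), by 0.88 on the log2 scale with an adjusted p of 1.7e-05 in limma.

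**Figure D3:**
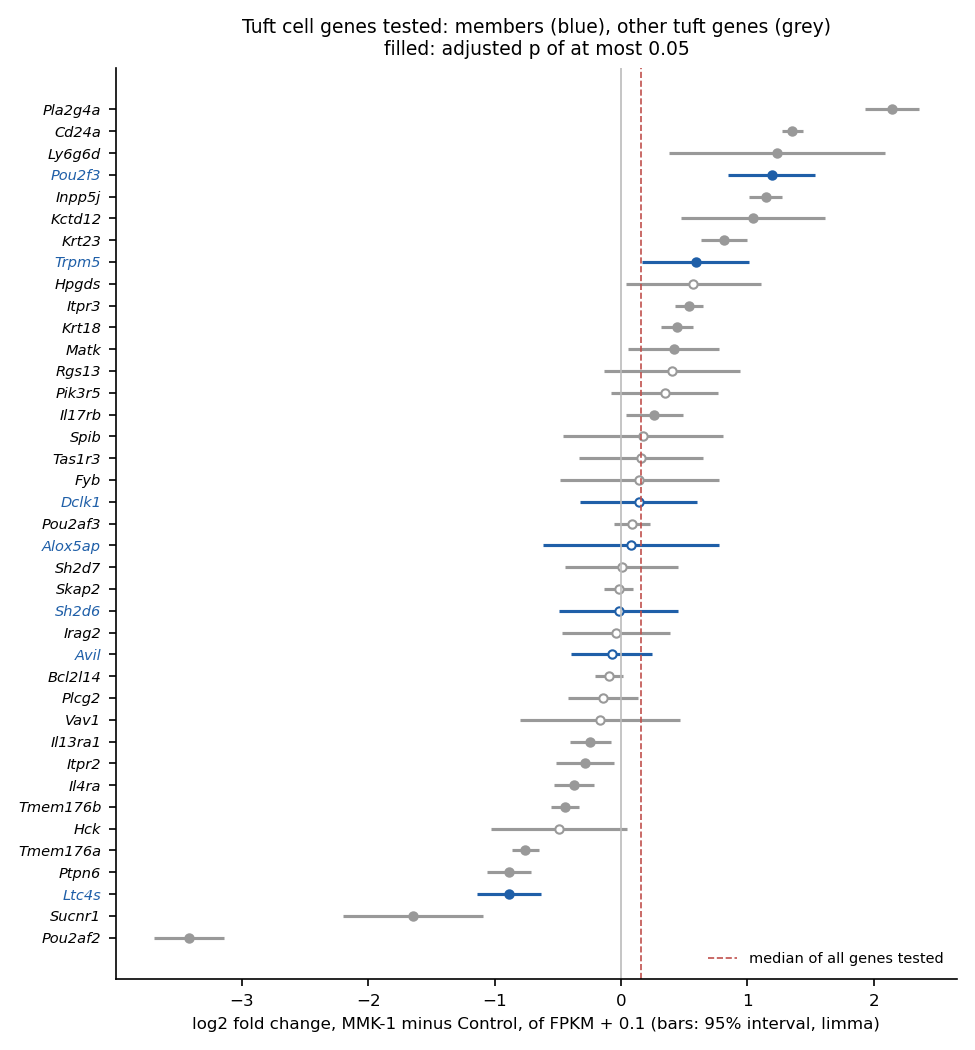
Log2 fold change of FPKM + 0.1, MMK-1 minus Control, with 95% interval from limma, for each tuft cell gene that could be tested: members in blue, other tuft cell genes in grey, filled where the adjusted p was at most 0.05. The dashed line is the median of all 13385 genes tested, 0.16; the genes spread to both sides of it, from Pou2af2 at -3.42 to Pla2g4a at 2.14.

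Markers of other cell types were measured in the same libraries because leukocytes share Alox5, Alox5ap and Ltc4s with tuft cells and enteroendocrine cells are, like tuft cells, a sparse epithelial type. The leukocyte genes analysed were 12, and the mast cell genes Cpa3, Tpsb2 and Fcer1a were not analysed here. Ptprc, the pan-leukocyte antigen CD45, had 1, 3 and 1 fragments in Control and 0, 1 and 1 in MMK-1, Tyrobp had at most 3 fragments in any library, and Mcpt4, a mast cell protease, was listed at 0 throughout. The summed level of the 12 genes was 3.44 to 4.43 FPKM in Control and 1.13 to 2.35 FPKM in MMK-1. Most of it came from Cd68, a lysosomal protein that is not restricted to macrophages. Cd68, Csf1r, the macrophage growth factor receptor, Laptm5 and Fcer1g were chosen for mention after their values were seen. Cd68 had 130, 147 and 167 fragments in Control and 41, 41 and 75 in MMK-1, and this change of -1.42 on the log2 scale (limma, adjusted p = 3.5e-04) was the only call among the 2 leukocyte genes tested. Csf1r had 20, 23 and 23 fragments in Control and 0, 1 and 2 in MMK-1, below the level required for the test. The 3 alternatives that kept it called it lower, among them limma with no filter (log2 fold change -1.23, adjusted p = 1.0e-04), and its pooled fragments were 21.3-fold higher in Control (counting interval 6.96 to 105.7). Csf1r met the minimum of the others, limma-voom on fragments, through its Control libraries alone, so those calls are not independent of the filter. Laptm5, a lysosomal protein of leukocytes, had 1, 0 and 1 fragments in Control and 3, 3 and 4 in MMK-1. It was below the level required for the test, and limma with no filter called it higher (log2 fold change 0.36, adjusted p = 0.0065). Fcer1g, an Fc receptor chain, had 6, 3 and 12 fragments in Control and 17, 0 and 9 in MMK-1 (adjusted p = 0.938 in limma). Of the 12 genes, 2 were lower and 1 was higher without overlap of the groups, beside 18.1% and 34.6% of all genes above 0, and most of the others had too few fragments to show a change of either kind. The summed level, most of which is Cd68, was lower in MMK-1 where Ltc4s and Alox5 were also lower, and its part in those differences was not tested.

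The 8 enteroendocrine genes summed to between 150 and 163 FPKM in Control and between 182 and 198 FPKM in MMK-1. All 8 were tested and 6 were higher, against 44.2% of all genes tested, and 2 of the 6, Pax6 and Scg3, passed in only 7 of 13 and 7 of 15 alternatives. Chga, the granule protein chromogranin A, had a log2 fold change of 0.05 with an adjusted p of 0.387 in limma. The sum of 7 stromal and neural genes was 4.90 to 5.40 FPKM in Control and 3.73 to 5.20 FPKM in MMK-1, and neither of the 2 that could be tested was called. Vim, vimentin, is 1 of the 2 and is named after its values were seen. It was called lower in 4 of 15 alternatives, among them the fit without MMK-1 replicate 3 (log2 fold change -0.44, adjusted p = 0.0015 in limma). The 4 general epithelial genes summed to between 1932 and 1948 FPKM in Control and between 1433 and 1556 FPKM in MMK-1. Epcam, the epithelial adhesion molecule, was level between the groups at 391.7 ± 1.79 and 390.8 ± 20.9 FPKM (SD, n = 3 each; adjusted p = 0.936 in limma). It passed the threshold in 1 of 15 alternatives (adjusted p = 0.0251 in limma). The other 3, named after their values were seen, were not level. Vil1, the microvillus protein villin, fell from 565.8 ± 5.48 to 244.8 ± 10.9 FPKM, Krt8, a keratin, fell from 837.6 ± 4.11 to 680.9 ± 32.0 FPKM, and Cdh1, E-cadherin, rose from 145.7 ± 3.16 to 163.5 ± 3.32 FPKM, with adjusted p of 1.4e-07, 3.9e-04 and 0.00364 in limma. The call of Cdh1 was lost under upper-quartile scaling (log2 fold change 0.06, adjusted p = 0.111). The sum of the 10 tuft genes was 5.56 to 6.32 FPKM in Control and 4.15 to 4.93 FPKM in MMK-1, and Ltc4s was the largest term of that sum in each library.

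**Figure D4:**
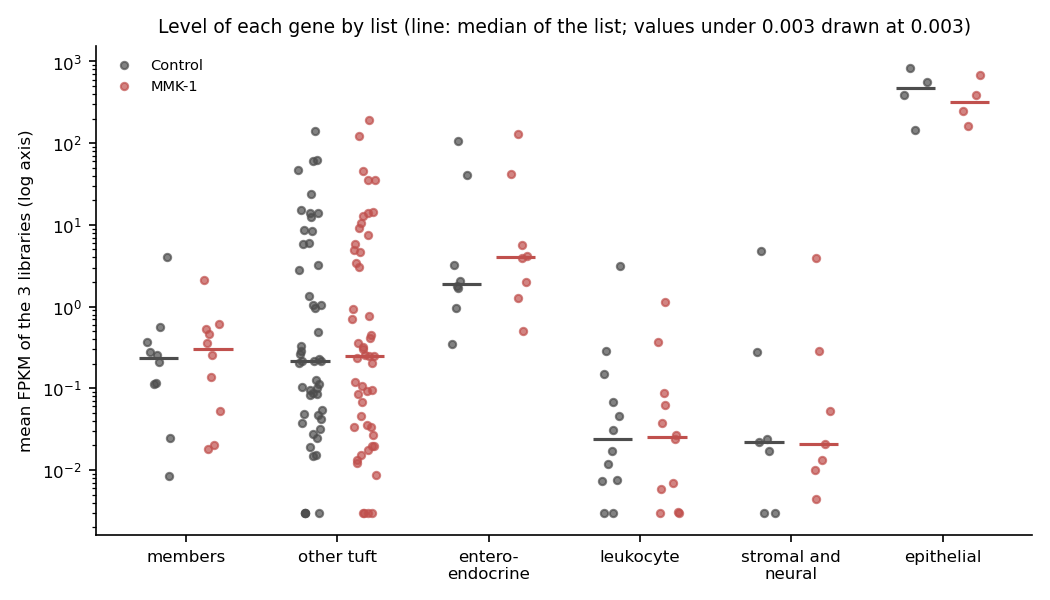
Mean FPKM of each gene in Control (grey) and MMK-1 (red) on a log axis, by list, with the median of each list as a line and means below 0.003 FPKM drawn at 0.003. The 10 tuft genes had a median of 0.234 FPKM in Control and 0.305 FPKM in MMK-1, about level with the other tuft genes (0.215 and 0.247) and above the leukocyte genes (0.0241 and 0.0253) and the stromal and neural genes (0.0220 and 0.0211).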

How the data were processed

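RNA of 6 organoid libraries was sequenced. The authors deposited FPKM values, and the submitters' processing notes name HISAT2, HTSeq, R 3.2.0, DESeq2 and the mm10 build without assigning roles. The strand setting, annotation version and exact counting steps are not given in the sources used here. FPKM values proved to be whole fragments divided by a length for each gene and a total for each library, so fragments and totals were recovered: 100% of values lay within 0.005 of a whole number, and 99.7% of each total fell on genes of the table. In simulated libraries 99.96% of genes were recovered up to a shared factor.

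Groups were compared with limma 3.58.1 in R 4.3.3, limma-trend on log2(FPKM + 0.1) over genes with a mean of at least 0.1 FPKM and without a replicate block. This understates the changes of low genes. In simulated data with 13202 genes, the test called 56.5% of 23 genes changed 2-fold and 83.3% of 18 genes changed 3-fold at means of 0.1 to 1 FPKM, and 0.0769% of unchanged genes. The simulated libraries all shared the same spread, and few of their genes were changed. They hold neither the odd MMK-1 replicate 3 nor the wide change of the real data, so the rates there may differ. Permutation tests were exact and two-sided. Other steps ran in Python 3.11.15 (scipy 1.17.1, numpy 2.4.6, pandas 2.3.3, matplotlib 3.10.9).

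Positions are those of GENCODE vM21 on GRCm38 (mm10), and promoters those of RefSeq. The members and gene lists were chosen with earlier results of these data known. Genes named were the 10 members, the 3 largest called changes in each direction among the other tuft genes, and fixed examples of each list (Gnat3, Plcb2, Gng13, Ptgs1, Hpgds, Chat, Il17rb, Sucnr1, Spib and Pou2af2; Ptprc, Tyrobp, Cpa3, Chga and Epcam).

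Alternatives were other pseudocounts and filters, upper-quartile scaling, limma-voom on fragments, a replicate block and leaving out each library.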

Additional observations from a re-analysis of the deposited data

How the results depend on the processing

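Of 92 alternative results for the 7 members tested, 84 kept their direction and their side of the threshold, 3 (all Trpm5) lost the call and 5 changed sign, none of them called. For the other tuft cell genes 393 of 443 did so, 30 lost and 8 gained a call, and 12 changed sign, also uncalled. The changes of sign came with small log2 fold changes. With 1 library left out these ranged from -0.27 to 0.33 for Alox5ap, -0.15 to 0.0071 for Avil, -0.21 to 0.13 for Sh2d6, -0.016 to 0.31 for Tas1r3, -0.010 to 0.39 for Spib, -0.35 to 0.040 for Vav1, -0.038 to 0.023 for Skap2, -0.11 to 0.069 for Irag2 and -0.13 to 0.11 for Sh2d7. Sh2d7 was at -0.0015 with a pseudocount of 0.01 and at -0.072 under upper-quartile scaling, and Pou2af3 at -0.020 under the latter. By the rule of a 2-fold change with an unadjusted p up to 0.05, added after the data were seen, 1 member was higher and 0 lower, 5 other tuft genes were higher and 2 lower, and 1079 genes in all were higher and 804 lower. With a minimum mean of 1 FPKM, at a pseudocount of 0.1 or 1, 0 members were called higher, because Ltc4s was then the only member tested. With no filter, and with limma-voom on genes with at least 3 fragments on average, 2 members were lower because Alox5 was then tested. Leaving out 1 library at a time gave 1 to 2 members higher and 1 lower, 7 to 9 other tuft genes higher and 5 to 9 lower (5 without Control replicate 1 or without Control replicate 3), and in all 5379 to 5878 genes higher and 2795 to 3487 lower. Scaling by the upper quartile shifted the median over all genes tested by -0.103 (log2) and the share of higher among called genes from 65.4% to 54.3% (4837 higher and 4071 lower, against 5911 and 3131), left members at 2 higher and 1 lower, and turned other tuft genes from 10 higher and 8 lower to 8 and 10. Replicate numbers are shared between the groups, but deviations of same-numbered libraries correlated at only -0.0135 to 0.0132 and not every library correlated best with its own number. With a replicate block 2 members were higher and 1 lower, and 5754 and 3042 genes in all. Depth limits what can be said of Gfi1b, Il25, Gnat3, Gng13, Ptgs1 and Chat, which had at most 9 fragments in any library, and of 2-fold changes in genes under 1 FPKM.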

Other observations

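Several genes of the wider tuft list that the rule did not name also changed, and they are given here as values chosen after they were seen. Inpp5j, an inositol phosphatase, had 810, 901 and 852 fragments in Control and 1845, 1770 and 1906 in MMK-1, a rise of 1.14 on the log2 scale with an adjusted p of 8.4e-07 in limma. Krt18, a keratin of simple epithelia, rose by 0.44 and Krt23, a further keratin, by 0.81. Itpr3, the inositol trisphosphate receptor that serves the taste-type cascade and is widespread in epithelia, rose by 0.54. Tmem176a and Tmem176b, neighbouring genes for membrane proteins, fell by 0.76 and by 0.44. Of the receptors for the type 2 cytokines, Il4ra fell by 0.37 and Il13ra1 by 0.24 on the same scale. Il4ra was called in 15 of 15 alternatives and Il13ra1 in 13 of 15, with a highest adjusted p of 0.0506 in limma.

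Kctd12, a cytoplasmic protein found in tuft cells, showed the uneven state of MMK-1 replicate 3. It had 310, 302 and 308 fragments in Control, 799 and 794 in MMK-1 replicates 1 and 2, and 399 in MMK-1 replicate 3. The log2 fold change was 1.04 with all libraries and 1.38 without that library. Nebl, a nebulin relative, had 2, 1 and 1 fragments in Control and 16, 6 and 5 in MMK-1, and was below the level required for the test. With no filter limma did not call it (adjusted p = 0.121). In limma-voom on genes with at least 3 fragments on average it was called higher (adjusted p = 0.0186), but it met that minimum through MMK-1 alone. Rac2, a small GTPase of leukocytes and tuft cells, had 11, 9 and 15 fragments in Control and 5, 3 and 7 in MMK-1, likewise below that level. With no filter limma called it lower (log2 fold change -0.48, adjusted p = 0.0333), and the same limma-voom setting did not (adjusted p = 0.0755).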
